A study of Mus musculus with 3 samples.

Results

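Proliferating Kupffer cells were described in single-cell RNA libraries of sorted mouse liver macrophages. A cell barcode was kept when it held at least 1000 UMIs (unique molecular identifiers, 1 per captured RNA molecule), at least 300 genes and at most 10% mitochondrial UMIs. It was taken as a Kupffer cell when Clec4f, Cd5l, C1qa, C1qb and C1qc together made up at least 1% of its UMIs. It was taken as proliferating when it also held at least 3 UMIs summed over 8 genes, Top2a, Mki67, Birc5, Ccna2, Cdk1, Ube2c, Cenpf and Nusap1. The rule found 185 barcodes among 9081 Kupffer barcodes, out of 9842 barcodes that passed the filters. They were compared with the other 8896 Kupffer barcodes of the same libraries, which held 0 to 2 UMIs of the 8 genes.

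Kupffer cells are the macrophages that live in the liver sinusoids and clear particles, ageing red cells and bacterial products from portal blood. In the adult liver they are maintained largely by division within the tissue rather than by steady entry of monocytes, and colony-stimulating factor 1, acting through its receptor Csf1r, is a main growth signal for them. A dividing cell first copies its DNA, for which it makes nucleotide-synthesis enzymes, the MCM helicase and replication factors, and then builds a spindle and separates its chromosomes with cyclin B, mitotic kinases and kinesins.

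The 3 libraries each came from 1 male mouse aged 8 weeks, so each diet had 1 sample. The chow mouse ate ordinary chow, and the other mice drank Lieber-DeCarli liquid food containing ethanol at 5%, for 3 or 10 days. No mouse on liquid food without ethanol was among the samples, so effects of ethanol and of switching from chow to liquid cannot be told apart, and differences between mice, sorts and libraries cannot be told apart from those between diets. Live cells with high F4/80 (the product of Adgre1) and intermediate CD11b were sorted from collagenase-perfused livers, which favours resident macrophages over monocytes and sets what other cells could be present. The sort was used in all 3 samples.

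The libraries held 16538895 to 21650747 UMIs over all barcodes, and the summed counts of the proliferating barcodes were 365389 (chow), 380556 (3 days) and 277480 (10 days). Sums over the other Kupffer barcodes ran from 8852681 to 12583769 UMIs, so the precision of every comparison was set by the small proliferating class. Between 7 and 17 Kupffer barcodes were shared by each pair of libraries, close to the 9.37 to 14.1 that random draws from the barcode list would share, and none of them was a proliferating barcode in both libraries.

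The 8 genes chose the barcodes, so their levels are given as a description. Top2a, the topoisomerase that untangles replicated chromosomes, made up 698 UMIs of each 1000000 (CPM) of the proliferating class in chow, 1277 after 3 days of ethanol and 941 after 10 days, against 5.01, 4.29 and 3.73 CPM in the other Kupffer barcodes. It was seen in 74.5%, 87.7% and 78.9% of proliferating barcodes, more than any other of the 8 in the ethanol libraries, while Birc5, the survivin subunit of the chromosomal passenger complex, was seen most often in chow (78.2%). Mki67, the gene of the Ki-67 antigen, stood at 274, 365 and 335 CPM, and the mitotic kinase Cdk1 at 224, 307 and 324 CPM. Nusap1, a spindle protein, was the lowest of the 8 in chow, with 107 CPM, and Cenpf, a centromere protein, was the lowest at 3 days, with 152 CPM. RNA free in solution, read from barcodes with at most 100 UMIs, held 14.1, 21.8 and 20.1 CPM of Top2a, above the level in the other Kupffer barcodes and far below that in the proliferating class.

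The threshold of 3 UMIs cut a graded distribution. Among all Kupffer barcodes, 8086 held no UMI of the 8 genes, 735 held 1 and 75 held 2. On the other side 20 barcodes held 3, 16 held 4, 51 held 5 to 11, 72 held 12 to 29 and 26 held 30 or more. The median level of 77 further mitosis genes, none of them among the 8, was 7.95 UMIs per 10000 in barcodes with 2 UMIs and 13.9 in barcodes with 3, just outside and just inside the threshold. It was 35.3 in barcodes with 4 UMIs, 76.5 with 5 to 11 and 103 with 30 or more, beside 5.31 in barcodes with none. Barcodes with 3 UMIs thus lay nearer to the excluded side on this measure than to the barcodes with 5 or more.

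Proliferating barcodes were deeper than the others. Their median was 6681 UMIs against 4636 in chow, 4837 against 3089 at 3 days and 4248 against 3061 at 10 days, ratios of 1.44, 1.57 and 1.39. They held medians of 2430, 2125 and 1973 genes against 1887, 1462 and 1471. The mitochondrial share differed little, with medians of 5.16%, 5.12% and 5.86% against 5.24%, 5.19% and 6.43%. A threshold on UMIs also favours deeper barcodes, and how much of the depth difference the rule made was not tested.

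The share of proliferating barcodes was close to 2% in each library. There were 55 of 2537 in chow (2.17%, exact Clopper-Pearson 95% interval 1.64 to 2.81%), 73 of 3820 at 3 days (1.91%, 1.5 to 2.40%) and 57 of 2724 at 10 days (2.09%, 1.59 to 2.70%). The intervals overlapped and cover counting error only, and with 1 mouse per diet no test was possible. Because chow barcodes were deeper, each barcode was also thinned to 1500 UMIs, which left out 112, 318 and 224 shallower barcodes. The share was then 1.15% in chow (0.769 to 1.66%), 1.68% at 3 days (1.28 to 2.17%) and 1.56% at 10 days (1.11 to 2.13%). Chow thus had the highest of the 3 shares on all UMIs and the lowest after thinning, and in both cases the intervals overlapped. With at least 12 UMIs of the 8 genes required, the counts were 26, 50 and 22 barcodes, or 1.02%, 1.31% and 0.808%. With 1 mouse per diet, these shares cannot tell whether the diets differ.

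**Figure D1:**
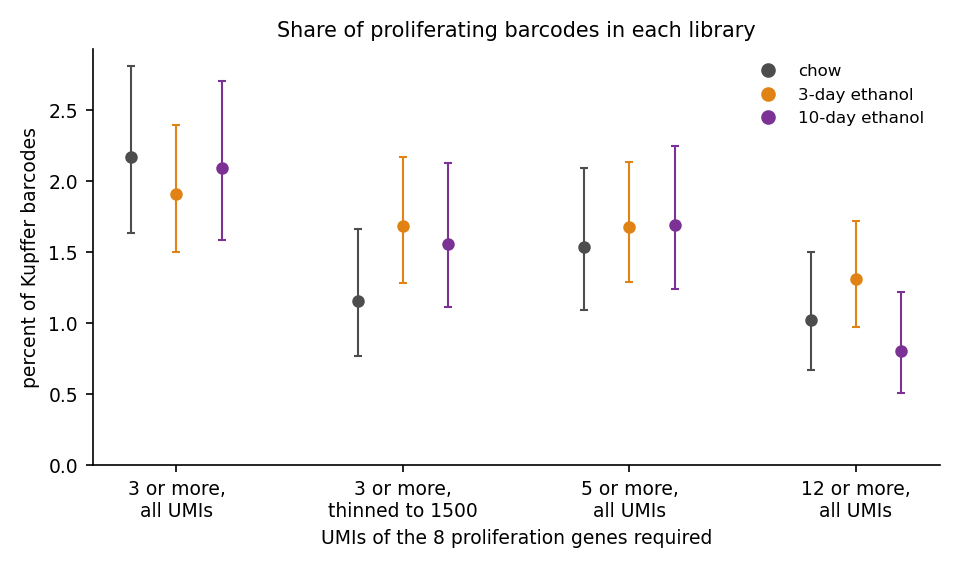
Share of Kupffer barcodes called proliferating (y axis, percent, with exact Clopper-Pearson 95% intervals as bars) in each of the 3 libraries, under 4 ways of choosing them (x axis). The order of the libraries changes with the choice, from 2.17% in chow as the highest share on all UMIs to 1.15% in chow as the lowest after thinning to 1500 UMIs, and the intervals overlap within each choice.

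The label was checked against markers the rule had not used. All 35 genes of a Kupffer identity list, written without the 5 genes of the rule, had UMIs in the proliferating class of every library. Barcodes below the 1% limit held UMIs of 34, 35 and 35 of them, so presence alone is no check of the label. Together the 35 genes made up 22945, 24483 and 26460 CPM in the proliferating class. They made up 28426, 32238 and 33128 CPM in the other Kupffer barcodes and 4354 to 7107 CPM in barcodes below the limit. T cell markers (12 genes) summed to 98.5, 145 and 101 CPM in the proliferating class, against 118, 91.5 and 74.6 CPM in the other Kupffer barcodes and 2394 to 3864 CPM below the limit. Natural killer cell markers (11 genes) summed to 181, 302 and 198 CPM against 194, 163 and 144 CPM, and hepatocyte markers (14 genes) to 939, 1006 and 829 CPM against 1249, 1411 and 1204 CPM. Markers of bile duct cells, and of platelets, mast cells and basophils, were at 0 in the proliferating class, apart from 1 UMI of a bile duct gene at 3 days. T and natural killer marker RNA was thus far below the level in barcodes under the limit, but at 3 and 10 days it was above that in the other Kupffer barcodes. Nkg7, a cytotoxic granule gene, rose (log2 fold 0.90, SE 0.25, edgeR adjusted p = 0.0059) and lost the call without the 3-day library (0.32). B and plasma cell markers (11 genes) summed to 167, 52.6 and 57.7 CPM against 180, 46.9 and 42.0 CPM, and at least 3 of their UMIs were in 18.2%, 1.37% and 0% of proliferating barcodes against 5.20%, 0.40% and 0.225% of the others. Cd79b, a chain of the B cell receptor, rose by 0.78 (edgeR adjusted p = 0.0264), a call lost without the chow or the 10-day library. Monocyte markers (7 genes) summed to 449, 355 and 241 CPM against 344, 329 and 234 CPM, with at least 3 UMIs in 40.0%, 23.3% and 17.5% of proliferating barcodes against 22.2%, 14.0% and 8.17%. Conventional dendritic cell markers (11 genes) summed to 235, 202 and 292 CPM against 220, 224 and 257 CPM, with at least 3 UMIs in 21.8%, 12.3% and 15.8% against 10.3%, 5.36% and 7.39%. The shares are of barcodes that differ in depth. A filter on other types' markers used T, natural killer, B, endothelial, dendritic and neutrophil genes, without some that Kupffer cells also carry. Monocyte, hepatocyte, bile duct and platelet markers were not in that filter. The part of all these markers in the results below was not tested beyond the values with the filter. The Kupffer genes of the rule were plentiful in free RNA as well, with Clec4f at 4361, 4144 and 3554 CPM there and at 3027, 2901 and 2966 CPM in the proliferating class. The part of free RNA in the 1% rule was not tested. No proliferating barcode lacked Clec4f, and 99.9%, 99.7% and 99.7% of the other Kupffer barcodes held it too. Clec4f belongs to the rule, so its presence is no check of the label.

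Many barcodes held some RNA typical of other cells. Globin RNA in the chow class came almost wholly from 1 barcode, which held 96.2% of the Hba-a2 UMIs, 97.0% of Hbb-bs and 98.8% of Hba-a1. At least 3 UMIs summed over the markers of the filter were found in 69.1%, 57.5% and 59.6% of proliferating barcodes, against 59.1%, 38.7% and 41.7% of the shallower other barcodes. Removing the 4% of barcodes with the highest doublet scores took out 1, 7 and 1 of the proliferating barcodes. Without barcodes holding at least 3 UMIs of the filter's markers, 17, 31 and 23 proliferating barcodes were left, and 331 genes were higher and 338 lower. The part of the smaller number of barcodes in these counts was not tested.

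Gene levels were compared between the classes on counts summed per library and class, with the library as a block, by edgeR's quasi-likelihood test with Benjamini-Hochberg adjustment over all 10501 genes tested. Folds are relative to TMM-scaled totals, which set the typical gene near no change. The median gene had a log2 fold change of -0.05, against 0.08 when only library totals were used. At an adjusted p under 0.05, 1579 genes were called, 816 higher (7.77%) and 763 lower (7.27%). The classes did not overlap over the 3 libraries for 1893 genes on the higher side (18.0%) and 984 on the lower side (9.37%). Each list below was read against these shares. Because the barcodes were chosen by 8 cell-cycle genes of the same cells, higher levels of other cell-cycle genes in them follow in part from the choice and are no independent support for the label.

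Mitosis genes were higher in proliferating barcodes by the widest margin of the lists the rule did not use. Of 76 members tested 75 rose and none fell, with a median log2 fold change of 5.67, and 75 had no overlap between the classes. Ccnb1, cyclin B1 and the partner of Cdk1, was at 73.9, 110 and 173 CPM in proliferating barcodes, and at 0.164, 0.874 and 0.452 CPM in the others. The lowest proliferating library was far above the highest other one, and the log2 fold change was 7.64 (SE 0.37, edgeR adjusted p = 3.60e-33). Plk1, the polo-like kinase of the spindle, rose from 0.164, 0.556 and 1.02 CPM to 87.6, 121 and 151 CPM. Kif11, the kinesin that pushes spindle poles apart, rose from 0.493, 0.795 and 0.791 CPM to 93.1, 197 and 177 CPM. Cdc20, which activates the anaphase-promoting complex, rose by a log2 fold of 6.60 (SE 0.37).

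The 20 genes with the largest rise, ranked without the 8 of the rule, ran from Aspm (log2 fold 8.79, SE 0.55), a spindle-pole protein, to Cdc20. Of these 16 were on the mitosis list and 1, Rrm2, on the replication list. Next to Aspm stood the microtubule-depolymerising kinesin Kif2c (8.52, SE 0.45) and Hmmr (8.27, SE 0.43), a spindle-assembly factor. Cytokinesis genes were among them, with Prc1 at 7.58, Cep55 at 7.38 and Iqgap3 at 8.07. Aspm counts in the other barcodes were between 0 and 0.159 CPM, so its fold rests on few UMIs there. The exception on the list was Pttg1, securin, with 109, 121 and 90.1 CPM in proliferating barcodes beside 101, 108 and 91.0 CPM in the others (log2 fold -0.03, SE 0.15, edgeR adjusted p = 0.933).

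DNA replication genes were higher by a smaller factor. Of 62 members tested 56 rose and none fell, with a median log2 fold change of 2.33, and 55 had no overlap. Rrm2, the regulated subunit of ribonucleotide reductase, which supplies deoxynucleotides, was at 189, 323 and 371 CPM in proliferating barcodes and at 0.986, 1.83 and 2.15 CPM in the others (log2 fold 7.33, SE 0.21, edgeR adjusted p = 1.33e-50). Uhrf1, which copies DNA methylation onto the new strand, was at 68.4, 65.7 and 79.3 CPM beside 2.55, 0.477 and 2.03 CPM. The replication factors with a level in the other barcodes moved less. Pcna, the sliding clamp of the DNA polymerases, stood at 282, 265 and 332 CPM beside 79.4, 69.7 and 76.4 CPM (log2 fold 1.82, SE 0.12), and Mcm5, a helicase subunit, at 145, 105 and 184 CPM beside 12.9, 5.01 and 14.1 CPM (3.66, SE 0.21). Tyms, thymidylate synthase, rose by a log2 fold of 3.24 and the cyclin Ccne2 by 5.25. The members that did not pass were Pole2, Chaf1b, Pola2, Gins3, Cdc25a and Timeless.

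**Figure D2:**
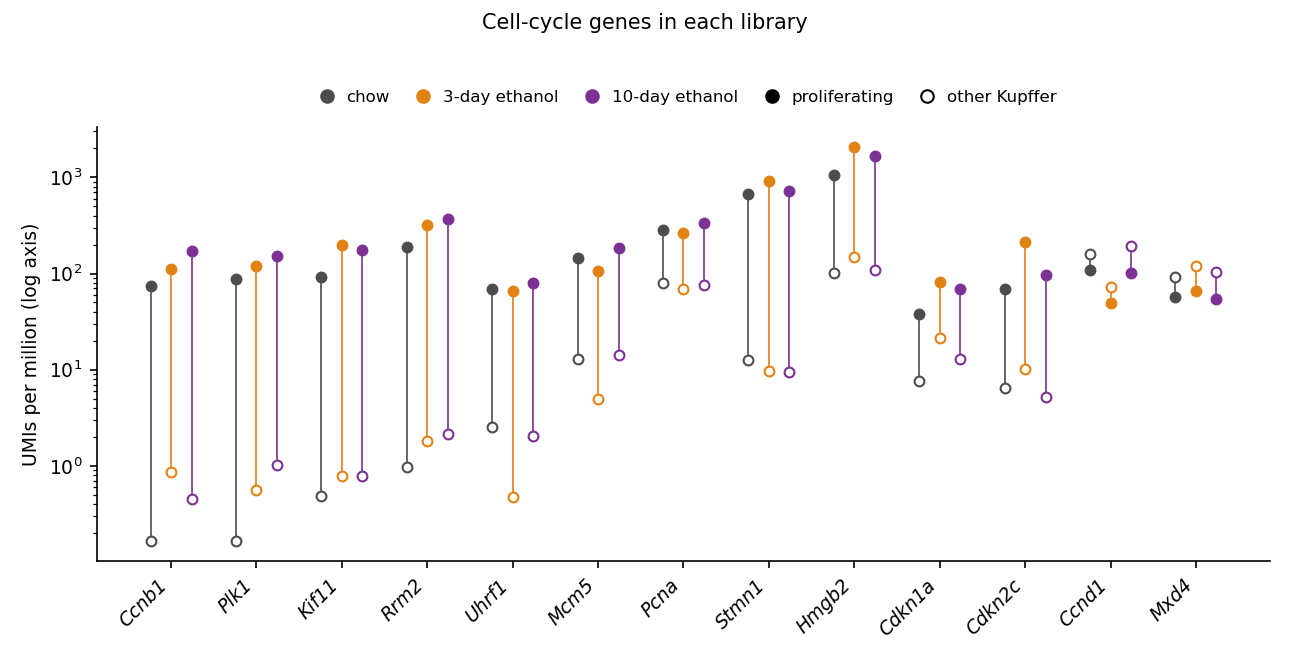
Levels of 13 cell-cycle genes (y axis, CPM, log axis) in proliferating barcodes (filled points) and other Kupffer barcodes (open points) of each library, joined by a line. Mitosis genes start below about 1 CPM in the other barcodes (Ccnb1 at 0.164 to 0.874 CPM), Pcna starts at 69.7 to 79.4 CPM, and Ccnd1 and Mxd4 lie lower in proliferating barcodes.

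Chromatin, tubulin and repair genes rose with them. On the chromatin and tubulin list 44 of 50 members rose and 2 fell (median log2 fold 1.85). Stmn1, stathmin, which frees tubulin from microtubules, was at 665, 925 and 724 CPM beside 12.5, 9.70 and 9.49 CPM (log2 fold 6.05, SE 0.12), and Hmgb2, a chromatin protein, at 1062, 2063 and 1669 CPM beside 101, 150 and 110 CPM (3.57, SE 0.08). The variant histone gene H2afz rose by 1.83 and the replication-dependent linker histone Hist1h1b by 5.01. The histone genes that fell were Hist1h2bc (-0.89) and Hist1h1c (-0.76). On the DNA repair list 25 of 34 members rose and none fell (median 2.76). Neil3, a DNA glycosylase, was at 35.6, 52.6 and 32.4 CPM in proliferating barcodes and at 0.247, 0.0795 and 0 CPM in the others, so its log2 fold of 8.07 rests on few UMIs there.

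**Figure D3:**
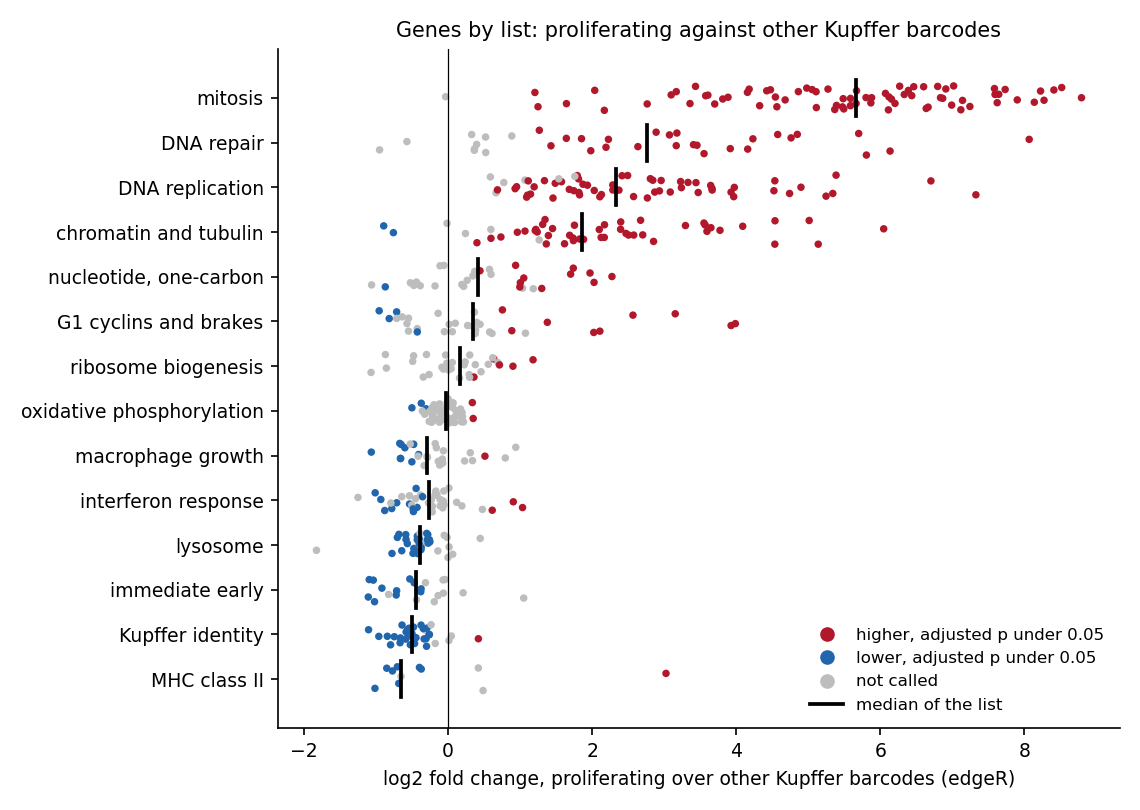
Log2 fold change of each tested gene (x axis, edgeR, proliferating over other Kupffer barcodes) in 14 gene lists (y axis), with red for higher and blue for lower at an adjusted p under 0.05, grey for genes not called and a black bar at the list's median. Mitosis genes (median 5.67) lie farther to the right than replication genes (2.33), and Kupffer identity and MHC class II genes lie mostly to the left of 0 (-0.50 and -0.65).

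The cyclins and brakes of the G1 phase did not move as a block. Of 34 members tested 9 rose and 4 fell (median log2 fold 0.35), and 5 rose without the 3-day library. Several of those that rose are inhibitors of the cycle. Cdkn2c, which encodes p18, an inhibitor of Cdk4 and Cdk6, was at 68.4, 210 and 97.3 CPM in proliferating barcodes beside 6.41, 10.2 and 5.20 CPM (log2 fold 3.93, SE 0.23, edgeR adjusted p = 8.26e-28), with UMIs in 14, 43 and 20 proliferating barcodes. Its relative Cdkn2d rose by 3.15 (SE 0.36). Cdkn1a, which encodes p21, was at 38.3, 81.5 and 68.5 CPM beside 7.64, 21.5 and 12.9 CPM (2.02, SE 0.25, edgeR adjusted p = 1.54e-10). Cdkn2a rose by 2.11 (SE 0.54) on 2, 5 and 8 UMIs. Fbxo5, an inhibitor of the anaphase-promoting complex, rose by 3.99, and Rbl1, which encodes p107, a relative of the retinoblastoma protein, rose by 2.57.

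The D cyclins, which carry growth signals to the cycle, behaved otherwise. Ccnd1 was lower in proliferating barcodes of each library, at 109, 49.9 and 101 CPM beside 161, 72.3 and 191 CPM (log2 fold -0.82, SE 0.16, edgeR adjusted p = 2.49e-05), although the classes overlapped between libraries. Ccnd2, Ccnd3, Cdk4 and Myc did not pass, with log2 folds of 0.10, 0.37, 0.45 and -0.14. Mxd4, an antagonist of Myc found in resting cells, fell from 92.4, 120 and 103 CPM to 57.5, 65.7 and 54.1 CPM, and the antiproliferative gene Btg2 fell by 0.71 on the log2 scale.

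The barcodes differed among themselves in how much replication and mitosis RNA they held. A list was called raised in a barcode above the level that 5% of the other Kupffer barcodes exceeded, 19.3 UMIs per 10000 for replication and 15.9 for mitosis over the 3 libraries together. Of the 185 proliferating barcodes 110 had both lists raised, 57 mitosis alone, 4 replication alone and 14 neither. The median was 31.2 UMIs per 10000 for the replication list and 82.1 for the mitosis list, beside 6.89 and 5.33 in the other barcodes. The quartiles were 13.9 and 77.0 for replication and 51.8 and 109 for mitosis. Across the 185 barcodes, which share 3 libraries and differ in depth, Spearman's rho between the levels was 0.02, as a description. The rule counts mostly genes of late S phase and mitosis, so barcodes with replication RNA alone had less chance to be chosen.

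Against the limits of each library on its own, the kinds of barcode came in different numbers. Both lists were raised in 23 of 55 chow barcodes, 54 of 73 at 3 days and 34 of 57 at 10 days, and mitosis alone in 26, 13 and 20. Neither list was raised in 4, 6 and 2. Some barcodes outside the rule held more replication RNA than the median proliferating barcode of their library. There were 152 of 2482 in chow (6.12%, above 18.7 UMIs per 10000), 8 of 3747 at 3 days (0.214%, above 35.1) and 44 of 2667 at 10 days (1.65%, above 34.6). Of these 119, 6 and 32 had none of the 8 genes. The chow limit was lower, so these counts are not on a common scale. It lay below the 20.4 that 5% of the other chow barcodes exceeded, so a share above 5% follows from the limit.

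**Figure D4:**
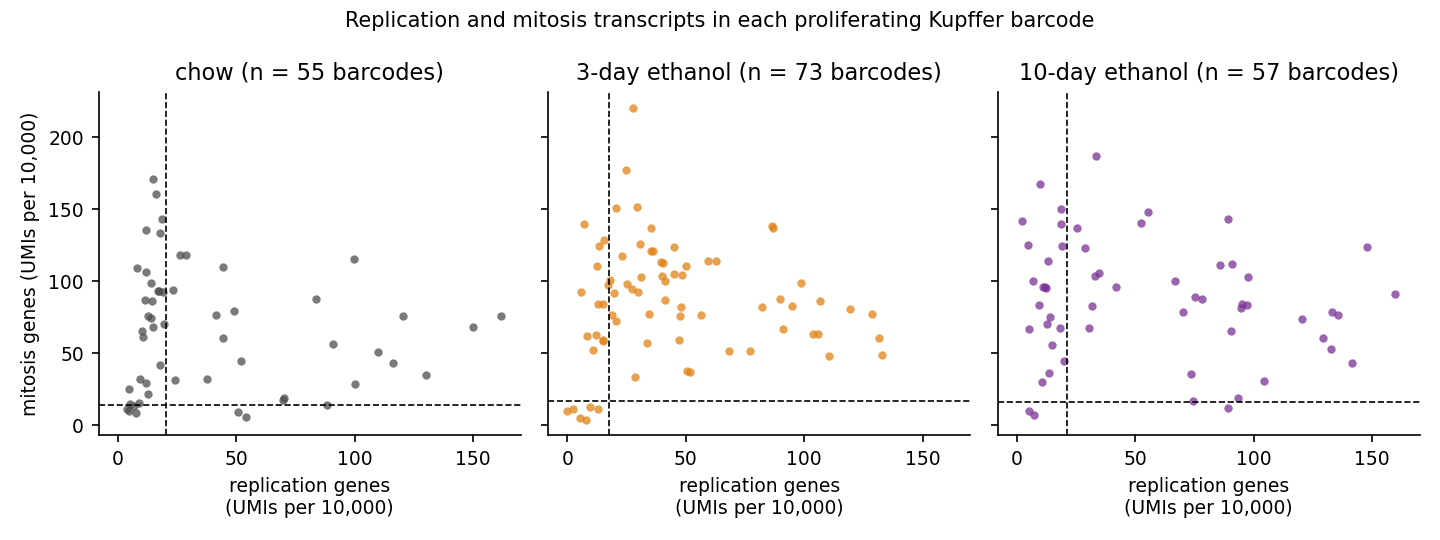
Each point is 1 proliferating Kupffer barcode, with its level of replication genes (x axis) and of mitosis genes without the 8 of the rule (y axis), both in UMIs per 10000, in 1 panel per library. Dashed lines mark the level that 5% of the other Kupffer barcodes exceed. The upper right field, with both lists raised, holds 23 of 55 barcodes in chow, 54 of 73 at 3 days and 34 of 57 at 10 days.

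Promoters of genes switched on in late cycle phases often carry a CHR element with CCAAT boxes, bound by the DREAM and MMB complexes and by NF-Y, while genes of the start of S phase often carry E2F elements. The 250 bases before the annotated start were read from the RefSeq table for GRCm38.p6 and searched on both strands for CHR (TTTGAA or TTCGAA), the CCAAT box (CCAAT) and E2F (TTT, then 2 bases each C or G, then CGC). A sequence was found for 61 of 77 mitosis genes, 51 of 64 replication genes and 8081 of the 10501 genes tested. CHR stood in 44.3% of the mitosis genes with a sequence, 21.6% of the replication genes and 14.8% of all genes tested. The CCAAT box stood in 72.1%, 58.8% and 40.8%, and both together in 36.1%, 15.7% and 5.82%. E2F stood in 9.84%, 25.5% and 4.12%. Among 26 Kupffer identity genes CHR stood in 34.6%, the CCAAT box in 34.6% and E2F in none. Over all 27025 genes of the table the shares were 19.6%, 37.5% and 2.16%.

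Promoters of 5 genes that rose or belong to the rule are printed to show how the elements lie, chosen after the search. Capitals mark the matches to CHR, the CCAAT box (ATTGG on the other strand) and E2F, and adjoining or overlapping matches run together. Cdk1 (chr10:69352913-69353162, minus strand) holds all 3 motifs. Ube2c (chr2:164769679-164769928, plus strand), the ubiquitin-conjugating enzyme of the anaphase-promoting complex, Ccnb2 (chr9:70421555-70421804, minus strand), cyclin B2, and Cdc20 (chr4:118437344-118437593, minus strand) hold CHR and CCAAT boxes. Cdc6 (chr11:98907901-98908150, plus strand), which loads the MCM helicase, holds E2F alone. Its level, 2.74, 18.4 and 14.4 CPM in proliferating barcodes beside 3.78, 2.94 and 2.71 CPM, was higher at 3 and 10 days and not in chow.
Cdk1: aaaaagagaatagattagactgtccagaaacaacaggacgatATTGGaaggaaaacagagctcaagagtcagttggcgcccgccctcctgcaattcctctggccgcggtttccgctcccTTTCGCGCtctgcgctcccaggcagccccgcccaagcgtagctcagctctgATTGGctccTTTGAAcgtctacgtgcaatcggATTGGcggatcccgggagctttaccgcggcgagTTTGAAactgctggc
Ube2c: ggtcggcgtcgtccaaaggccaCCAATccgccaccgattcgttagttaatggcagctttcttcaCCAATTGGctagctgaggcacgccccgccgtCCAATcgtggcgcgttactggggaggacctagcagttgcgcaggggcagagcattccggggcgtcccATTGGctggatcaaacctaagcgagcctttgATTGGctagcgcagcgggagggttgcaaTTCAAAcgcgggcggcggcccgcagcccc
Ccnb2: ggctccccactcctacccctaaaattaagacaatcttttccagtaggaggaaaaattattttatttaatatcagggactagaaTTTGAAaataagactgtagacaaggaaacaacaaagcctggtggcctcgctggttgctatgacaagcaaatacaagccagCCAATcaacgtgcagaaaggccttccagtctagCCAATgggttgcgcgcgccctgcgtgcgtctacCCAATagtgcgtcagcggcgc
Cdc20: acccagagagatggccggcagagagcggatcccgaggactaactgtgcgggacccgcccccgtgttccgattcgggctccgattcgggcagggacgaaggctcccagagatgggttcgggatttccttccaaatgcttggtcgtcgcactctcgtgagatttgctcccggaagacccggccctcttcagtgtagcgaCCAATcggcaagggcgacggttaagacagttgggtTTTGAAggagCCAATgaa
Cdc6: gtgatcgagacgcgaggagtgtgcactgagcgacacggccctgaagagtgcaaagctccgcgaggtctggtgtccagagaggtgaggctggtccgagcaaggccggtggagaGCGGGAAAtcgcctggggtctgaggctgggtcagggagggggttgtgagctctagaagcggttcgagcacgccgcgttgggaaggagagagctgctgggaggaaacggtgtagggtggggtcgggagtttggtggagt
A match is a description of letters in these windows, and binding was not measured.

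Kupffer identity genes made up a smaller share of the RNA of proliferating barcodes. Of 35 members tested 29 fell and 1 rose, with a median log2 fold change of -0.50. Adgre1, which encodes the F4/80 antigen used in the sort, was at 520, 484 and 443 CPM beside 888, 805 and 884 CPM (log2 fold -0.96, SE 0.08, edgeR adjusted p = 1.79e-18). Il18bp, the decoy receptor for interleukin 18, was at 427, 294 and 342 CPM beside 712, 704 and 653 CPM (-1.10, SE 0.09). Vsig4, a complement receptor, fell by 0.58 and the haemoglobin receptor Cd163 by 0.66 on the log2 scale. Clec4f, C1qa and the other genes of the 1% rule were lower too, by 0.46 to 0.65, as a description. The count of 29 that fell was 20 with library totals only and 20 by DESeq2. Without the library block it was 9.

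Per barcode, most of these genes were not lower. The median ratio of UMIs per barcode, proliferating over other, was 1.08 in chow, 1.15 at 3 days and 1.21 at 10 days over the 35 identity genes. Of these 23 were higher per barcode in all 3 libraries and 2 were lower in all 3, while in CPM 29 were lower in all 3. Of all 9325 genes tested with UMIs in every sum, 6171 were higher per barcode in all 3 libraries and 159 lower. In CPM 1538 of the 9325 were lower in all 3. The share of identity genes higher per barcode was thus near that of all genes. Clec4f averaged 20.1, 15.1 and 14.4 UMIs per proliferating barcode beside 20.1, 13.6 and 13.7 in the others, and Vsig4 averaged 16.6, 13.5 and 12.2 beside 16, 12 and 11.7. Adgre1 was lower on both scales, at 3.45, 2.52 and 2.16 UMIs per barcode beside 4.35, 2.70 and 2.93. For all genes tested with UMIs in every sum, the median ratio per barcode was 1.46, 1.63 and 1.57, so a gene at an equal number of UMIs per barcode was lower in CPM.

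**Figure D5:**
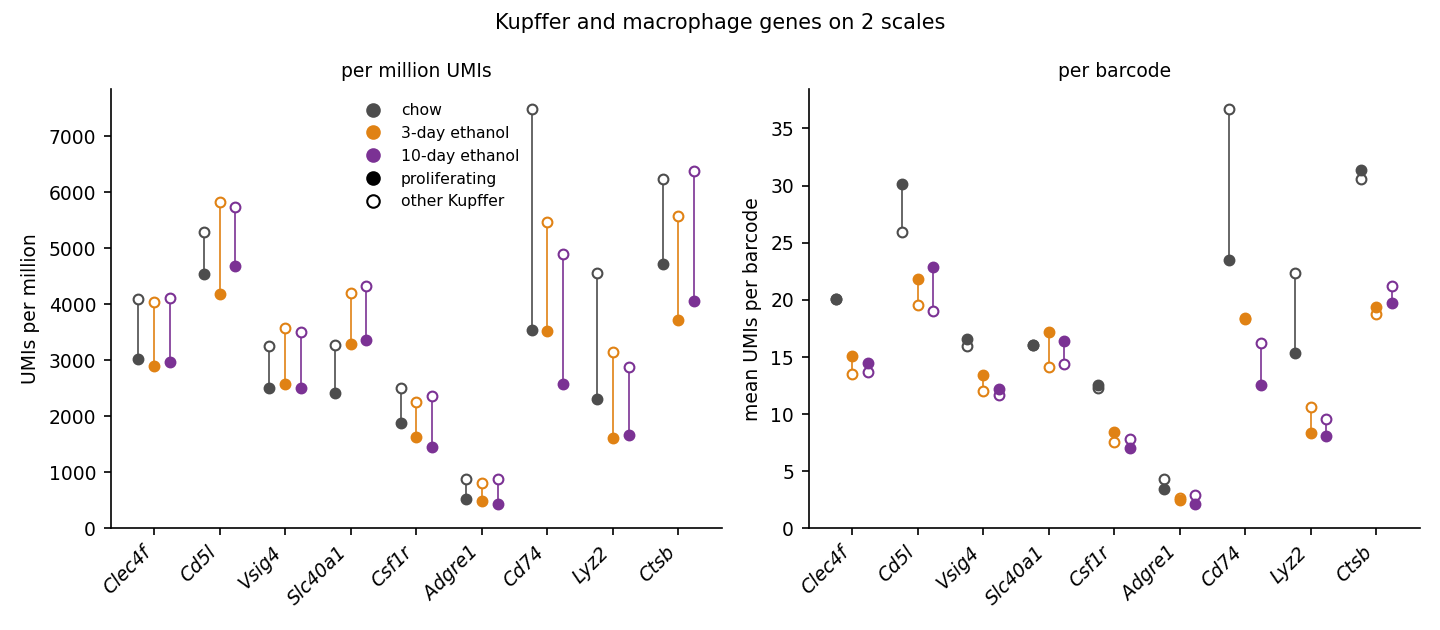
Levels of 9 macrophage genes in proliferating (filled) and other Kupffer barcodes (open) of each library, as CPM (left) and as mean UMIs per barcode (right). All 9 are lower in CPM in proliferating barcodes of every library, while per barcode Clec4f, Vsig4 and Csf1r nearly coincide (Clec4f 20.1 and 20.1 in chow) and Cd74 stays lower in chow (23.5 beside 36.7) and at 10 days (12.5 beside 16.3).

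Marco, a scavenger receptor for bacteria, was the identity gene that rose. It was at 454, 434 and 1016 CPM in proliferating barcodes beside 325, 343 and 581 CPM (log2 fold 0.42, SE 0.08, edgeR adjusted p = 3.98e-05), and at 3.02, 2.26 and 4.95 UMIs per barcode beside 1.59, 1.15 and 1.93. It was higher in all 3 libraries, with UMIs in 35, 40 and 41 proliferating barcodes, though 20.5%, 17.0% and 13.8% of its UMIs came from the barcode that held most. The call was lost without the 10-day library (log2 fold 0.29), without the library block (0.45), at a mitochondrial limit of 5% (0.15) and without barcodes carrying other types' markers (0.098). Timd4, a receptor for dying cells that marks long-resident Kupffer cells, was at 369, 302 and 429 CPM beside 487, 452 and 461 CPM (-0.50, SE 0.09), and at 2.45, 1.58 and 2.09 UMIs per barcode beside 2.39, 1.52 and 1.53.

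Genes of antigen presentation by MHC class II made up a smaller share of the RNA. Of 11 members tested 7 fell and 1 rose (median log2 fold -0.65). Cd74, the invariant chain, was at 3541, 3532 and 2577 CPM beside 7490, 5468 and 4897 CPM (-1.01, SE 0.06, edgeR adjusted p = 5.40e-28), with no overlap, and H2-Ab1 fell by 0.85. Per barcode the median ratios of the 10 genes with UMIs in every sum were 0.817, 1.28 and 1.10, with 3 genes higher and 0 lower in all 3 libraries. Among all 9325 such genes 6171 were higher and 159 lower. The member that rose was H2-Oa (3.03, SE 0.60), on 3, 14 and 0 UMIs, and all 14 at 3 days came from 1 barcode. In the MHC class I list 2 of 20 rose and 5 fell (median -0.03). H2-Q7 rose by 1.35 and H2-D1 fell by 0.58. Reads of similar class I genes may be divided between them, and the part of this in the values was not tested.

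Lysosome genes were also lower in CPM. On the lysosome list 24 of 34 members fell and none rose (median log2 fold -0.38), among them the proteases Ctsb (-0.68, SE 0.06) and Ctss (-0.70, SE 0.06). On the list of fatty acid and LXR genes 8 of 33 fell and 1 rose (median -0.20), and Apoe, which carries lipid out of macrophages, was at 7058, 6769 and 5146 CPM beside 12667, 11733 and 8919 CPM (-0.95, SE 0.05), and at 46.9, 35.3 and 25.1 UMIs per barcode beside 62.1, 39.4 and 29.6. On the scavenger and efferocytosis list 13 of 26 fell and 1, Marco, rose (median -0.35). On the iron and haem list 9 of 21 fell and none rose (-0.44), and on the complement list 7 of 17 fell and none rose (-0.51). Per barcode the lysosome genes had median ratios of 1.14, 1.36 and 1.20.

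Immediate early genes, which respond within minutes to signals and to cell handling, made up a smaller share of the RNA. Of 21 members tested 11 fell and none rose (median log2 fold -0.44). Junb was at 142, 200 and 166 CPM beside 239, 353 and 371 CPM (-1.04, SE 0.11, edgeR adjusted p = 1.17e-12), with no overlap, and Ier2 fell by 1.11. Jun, at 68.4, 137 and 97.3 CPM beside 84.6, 109 and 93.0 CPM, did not pass. The count of 11 was 6 without the 10-day library, 6 by DESeq2 and 4 without the library block. Per barcode the median ratios were 1.21, 1.15 and 0.973. Of 20 genes with UMIs in every sum 8 were higher in all 3 libraries and 2 lower. Among all 9325 such genes 6171 were higher and 159 lower. On the list of inflammatory cytokines 6 of 26 fell and none rose (median -0.20), and 3 fell without the 10-day library. Cd14, the co-receptor for endotoxin, was at 38.3, 39.4 and 54.1 CPM beside 80.9, 116 and 94.3 CPM (-1.31, SE 0.20), and Il1b fell by 0.91.

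The 15 genes with the largest fall ran from Slfn5 (log2 fold -1.66, SE 0.28), an interferon-inducible gene of the Schlafen family, to Il18bp (-1.10). Slfn5 was at 24.6, 13.1 and 18.0 CPM beside 51.9, 61.0 and 46.1 CPM. Lilrb4a, an inhibitory receptor of myeloid cells, was at 148, 129 and 112 CPM beside 266, 251 and 254 CPM (-1.11, SE 0.13). Others were the membrane protein Ms4a7 (-1.33), Ltc4s, which makes leukotriene C4 (-1.17), and Rcan1, an inhibitor of calcineurin (-1.10). The falls were thus far smaller than the rises of the cycle genes, with no gene that met the naming rule below -1.66.

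On the list of nucleotide and one-carbon enzymes 11 of 30 members rose and 1, Tk2, fell (median log2 fold 0.41). Mthfd2, a mitochondrial folate enzyme, was at 24.6, 31.5 and 57.7 CPM beside 8.71, 6.75 and 4.97 CPM (2.28, SE 0.36), and Dtymk, thymidylate kinase, rose by 1.74. Ribosome biogenesis genes had 5 risers and no faller among 31 (median 0.16), with Nop58, a nucleolar protein, at 1.18. That count was 2 without the 3-day or the 10-day library, 1 by DESeq2 and 0 without barcodes carrying other types' markers. Of 56 nuclear genes of oxidative phosphorylation 2 rose and 3 fell (median -0.03), and of 17 glycolysis genes none rose and 3 fell (-0.17), 1 without the 3-day library. The median gene of oxidative phosphorylation thus stood near the median of all genes (-0.05), and that of glycolysis below it. Per barcode the oxidative phosphorylation genes had median ratios of 1.38, 1.66 and 1.63.

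Receptors of macrophage growth factors did not rise. On the growth signalling list 1 of 29 members rose and 9 fell (median log2 fold -0.29). Csf1r was at 1886, 1624 and 1449 CPM beside 2511, 2262 and 2357 CPM (-0.66, SE 0.06, edgeR adjusted p = 1.13e-15), and at 12.5, 8.47 and 7.05 UMIs per barcode beside 12.3, 7.6 and 7.83. The transcription factor Cebpa fell by 0.67 and Il10ra, a chain of the interleukin 10 receptor, by 1.06. Pim1, a kinase that promotes survival and growth, was the gene that rose, by 0.51 (SE 0.17), and the list had no riser without the chow or the 3-day library, without the highest doublet scores or by DESeq2. The ligand genes Csf1 and Il34 had too few UMIs to be tested.

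Monocyte genes gave no common direction, with 5 of 19 higher and 4 lower (median log2 fold 0.11). None was higher without the 3-day library, by DESeq2 or without the library block, and 3 were higher and 1 lower without the 10-day library. Ly6c2, Ccr2 and Fn1, which mark classical monocytes, did not pass, and Ccr2 was at 27.4, 36.8 and 7.21 CPM beside 11, 16.5 and 12.1 CPM. Lyz2, lysozyme, fell from 4567, 3157 and 2874 CPM to 2307, 1611 and 1669 CPM (-1.05, SE 0.06). Cx3cr1, the fractalkine receptor, rose by 1.06 (SE 0.35, edgeR adjusted p = 0.0245) on 1, 15 and 12 UMIs, of which 60.0% at 3 days and 83.3% at 10 days came from 1 barcode each, and the call was lost without the 3-day or the 10-day library. On the interferon list 3 of 39 rose and 11 fell (median -0.26), but 5 fell without the chow or the 3-day library, 6 without the 10-day library and 3 by DESeq2. Of the risers the chemokine genes Cxcl9 and Cxcl10 rested on 1 chow barcode each, which held 98.1% and 89.5% of their chow UMIs, and without the chow library the log2 fold change of Cxcl9 was -0.38. The other riser, Ifi27l2a, was at 2469, 2010 and 1553 CPM beside 1647, 1193 and 807 CPM. Among the p53 and apoptosis genes 1 of 32, Cdkn1a, rose and 2 fell (median -0.08).

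Levels between diets within the proliferating class have 1 library each and no test, and the chow library is shared by 2 of the 3 ratios. A gene was counted as different past a fold of 1.5, with 10 CPM added to both sides. Of 3285 genes at 50 CPM or more on average, 8.01% were higher and 4.69% lower at 3 days than in chow, 10.0% and 5.24% at 10 days than in chow, and 7.70% and 5.94% at 10 days than at 3 days. Of 56 mitosis genes measured, 21 were higher and none lower at 3 days than in chow (median log2 ratio 0.41), and 19 and none at 10 days (0.49). In the other Kupffer barcodes the same medians were 0.02 and 0.00. Those barcodes were chosen to hold few UMIs of the 8 genes, and many mitosis genes were near the floor there (Ccnb1 at 0.497 CPM on average). At such levels the added 10 CPM pulls a ratio toward no difference, so these medians are no contrast to the proliferating class. Replication genes had medians of 0.18 and 0.32 over 29 measured genes.

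Depth and the choice of members differed between the libraries too. Chow barcodes were deeper, and barcodes with exactly 3 UMIs of the 8 genes were 16.4% of the chow class, 9.59% at 3 days and 7.02% at 10 days. When the members were chosen after thinning to 1500 UMIs, a choice added after the difference in depth was seen, the mitosis medians were 0.05 and 0.06 and the replication medians were -0.04 and 0.11. With at least 5 UMIs required, the mitosis medians were 0.22 and 0.34. The size of the medians thus varied with how the members were chosen, and diet, mouse and depth cannot be told apart.

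Several genes that differed between diets in the proliferating class differed the same way in the other Kupffer barcodes. Vcam1, an adhesion molecule, was at 361, 796 and 231 CPM in the 3 libraries. Its ratio of 3 days to chow was 2.2 (exact conditional 95% interval 1.79 to 2.72, counting error only) beside 3.09 in the others, and that of 10 days to 3 days 0.290 (0.218 to 0.380) beside 0.256. Cebpb, a transcription factor of myeloid cells, was 3.20 times its chow level at 10 days (2.50 to 4.12) beside 2.54 in the others. Plin2, which coats lipid droplets, was 2.38 times its chow level at 10 days (1.56 to 3.68) beside 2.67, and Irf7, an interferon regulator, 0.506 times (0.361 to 0.699) beside 0.575. The intervals of these ratios contained the ratio in the other barcodes for Cebpb, Plin2 and Irf7 and, for 10 days to 3 days, Vcam1. For 3 days to chow the Vcam1 interval left out the 3.09 of the other barcodes and lay below it.

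Some genes had a ratio whose interval left out that of the other Kupffer barcodes. Cdkn2c was 3.07 times as high at 3 days as in chow (1.94 to 5.03) beside 1.59, with 80 UMIs at 3 days in 43 barcodes. Its relative Cdkn2d was 3.98 times as high (1.71 to 10.8) beside 0.676. Marco was 2.24 times as high at 10 days as in chow (1.84 to 2.73) beside 1.79, and Mcm3, an MCM subunit, 2.37 times (1.54 to 3.69) beside 1.06. Tmsb10, an actin-binding peptide, was at 0.453 times its 3-day level at 10 days (0.342 to 0.594) beside 0.939, but 27.5% and 29.2% of its UMIs came from 1 barcode each. These genes were picked from the extremes of many ratios or for their role, and no test of the difference between classes was run. Mcm3 is a replication gene, and the medians of replication and mitosis genes varied with how the members were chosen. Cdkn2c and Cdkn2d were also higher in proliferating than in other barcodes (log2 folds 3.93 and 3.15). The part of the choice of members in the Cdkn2c and Cdkn2d ratios was not tested. The other barcodes were chosen to hold few UMIs of the rule's genes, so their 1.59 and 0.676 are no clear contrast. Part of the Marco UMIs also came from single barcodes, as given above. The counting intervals cover neither the choice of members nor single barcodes.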

How the data were processed

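Whole-number UMI counts per gene and barcode were deposited by the authors as 1 matrix per library of 28692 genes and 737280 barcodes. Per the submitters' processing notes they came from Cell Ranger 2.2.0 on mm10, and filters applied before deposit are not given in the sources used here. Barcodes were filtered and classed with scanpy 1.11.5, and counts were summed per library and class. Classes were compared with edgeR 4.0.16 (TMM, low-count filter, library as block, 2 residual degrees of freedom). With the block, the spread it measures is that of the difference between the classes over 3 libraries. These are of 1 mouse each and differ in diet, and the spread between mice is not measured. Tested on simulated data for this comparison, with 10501 genes, it recovered 88% of 4-fold rises and 58% of 4-fold falls, 54% of doublings and 42% of 2-fold falls. The simulated sums had the same dispersion for all genes and no single barcodes. They cannot show how the test behaves for genes whose UMIs come mostly from 1 barcode. Diets were described by ratios with counting intervals. DESeq2 1.42.0, other scalings, filters, thresholds and each library left out were alternatives. Scrublet's automatic threshold marked 0% of barcodes, so it had not worked, and doublets were kept, with removal of the 4% highest scores as an alternative. Genes named were the 20 highest and 15 lowest among called genes at 50 CPM or more on average in either class with the same direction in all libraries, the most changed of each list, and list genes whose role the text gives, without mitochondrial, ribosomal protein and unnamed genes. Between diets they were the 5 highest and 5 lowest ratios per pair at 200 CPM or more, and list genes. Members and lists were chosen with earlier results of these data known. The gene annotation was GENCODE for GRCm38, with 28339 gene IDs matched.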

Additional observations from a re-analysis of the deposited data

Results flagged for a closer look

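Barcodes below the 1% Kupffer limit also held the 8 proliferation genes. At least 3 of their UMIs were found in 7 of 230 such barcodes in chow (3.04%, exact 95% interval 1.23 to 6.17%), 10 of 241 at 3 days (4.15%, 2.01 to 7.5%) and 6 of 290 at 10 days (2.07%, 0.763 to 4.45%). They are listed because they lie outside the compared classes. At least 3 UMIs of T or natural killer cell markers were present in 4, 8 and 5 of these barcodes.

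Some differences between proliferating and other Kupffer barcodes had opposite signs in the chow library and the ethanol libraries, and the difference between diets was not tested. The median log2 ratio of cholesterol synthesis genes was -0.081 in chow, 0.39 at 3 days and 0.63 at 10 days. For interferon genes it was 0.018, -0.33 and -0.20, and for monocyte genes -0.017, 0.052 and 0.082. Genes of fatty acid metabolism and the LXR receptors had medians of 0.082, -0.038 and -0.22. These ratios are of CPM without TMM scaling. For all genes tested with UMIs in every sum, the median CPM ratio was 1.08, 1.05 and 1.07, so the typical gene lay slightly above equal CPM. Signs of medians close to equal CPM thus depend on that baseline. Interferon genes with UMIs in every sum had median CPM ratios of 0.976, 0.794 and 0.864, below the typical gene in every library. The transcription factor gene Klf4 had log2 ratios of 0.051, -1.18 and -1.25, and Cx3cr1 had -0.94, 1.38 and 1.46 on 1, 15 and 12 UMIs.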

How the results depend on the processing

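The 816 genes higher and 763 lower became 1090 and 434 with library totals only, 593 and 302 by DESeq2, and 601 and 214 without the library block. They became 433 and 313 at a mitochondrial limit of 5%, and 331 and 338 without barcodes carrying other cell types' markers. Leaving out a library gave 546 to 751 higher and 440 to 642 lower, both lowest without the 3-day library (without 10 days 500 were lower). Of the single-gene values 3586 kept direction and call, 292 lost the call, 29 gained it and 7 reversed. Those that reversed were Cxcl9 (-0.51 at the 5% limit, -7.88 without other types' markers, -0.38 to 1.55 leaving out a library), Cxcl10 (-0.28 and -0.31 under the same filters), Ccl4 (0.074 with 2 or more UMIs) and S100a8 (0.20 without other types' markers). List medians reversed for ribosome biogenesis (-0.16) and monocyte genes (-0.50) without other types' markers, for monocyte genes without a count filter (-0.059), and for MHC class I (0.0017 with DESeq2 size factors, 0.11 with library totals, 0.044 matched in depth, -0.098 to 0.0048 leaving out a library). The share of proliferating barcodes in chow was 1.15% thinned, 1.40% thinned with 2 or more UMIs, 3.43% with 2 or more, 1.54% with 5 or more and 0.386% at a Kupffer limit of 3%. At 3 days it was 2.67% with 2 or more UMIs, 1.33% without other types and 0% at the 3% limit, and at 10 days 1.56% thinned, 1.46% without other types and 0% at the 3% limit, where no fit could be made. With members chosen after thinning, an alternative added after seeing the data, medians of 3 days over chow were -0.036 for the 8 genes, -0.037 (replication), 0.055 (mitosis), -0.090 (repair), 0.025 (ribosome biogenesis), 0.054 (MHC class I), -0.0098 (inflammatory), 0.069 (oxidative phosphorylation) and 0.081 (ribosomal proteins). Those of 10 days over chow were -0.039 for the 8 genes, 0.11 (replication), 0.065 (mitosis) and 0.071 (oxidative phosphorylation), and replication at 10 over 3 days was 0.094. With 5 or more UMIs, medians of 3 days over chow were 0.22 (mitosis), -0.0032 (inflammatory) and 0.027 (oxidative phosphorylation), and mitosis at 10 days over chow was 0.34. With 2 or more UMIs, mitosis at 10 days was 0.57 over chow and 0.064 over 3 days, and replication at 10 over 3 days was 0.44. As means of single-barcode shares, mitosis at 10 days was 0.36 over chow and -0.12 over 3 days. Without a filter, inflammatory genes at 10 days over chow were at -0.046 and p53 genes at 10 over 3 days at 0.11. The causes were not tested. The main comparison paired the classes of each library through the library block, and its counts without the block are given above. Diets could not be paired, with 1 library each. Depth limits genes with few UMIs in the 185 barcodes, and intervals cover counting error only.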
